A study of Mus musculus with 800 samples.

Results

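Serotonin receptors were followed through 9 genes, Htr1a, Htr1b, Htr1d, Htr1f, Htr2a, Htr2c, Htr3a, Htr4 and Htr7, out of 32285 genes in the count table. They were taken by gene symbol, 1 Ensembl gene each. No measured value entered that rule, but the receptors were chosen with earlier results of these data known. The data are full-length single-nucleus RNA-seq libraries of 800 nuclei, 40 for each of 20 vectors, from C57Bl/6J mice. Each vector was a PHP.eB adeno-associated virus, given at 5e11 viral genomes per mouse in young adults, in which a promoter or enhancer drove a YFP-tagged histone, and YFP-positive nuclei were sorted 3 to 4 weeks later.

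The vectors were named AiE0078h, AiE0140h, AiE0387m, AiE0390m, AiE0391h, AiE0401h, AiE0410m, AiE0445h_3xC2, AiE0447h, AiE0450h, AiE0452h, AiE0475m, AiE0600m, AiE0682h, AiE0743m_3xC2, AiE0779m, DLX2.0, hI56i, hSyn1 and CMV. All mice thus carried a vector and none was left without one. No label identifies an animal. Each vector therefore stands for 1 sample, p-values measure the spread between vectors, and nuclei of a vector may share an animal and a sort. A vector sets which nuclei could be sorted, so the classes below describe labelled nuclei and not the tissue.

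All labels give the anterior lateral motor cortex as the tissue, whereas the study's design also names striatum and primary visual cortex. Of the 698 nuclei with at least 1000 detected genes, 161 were named SPN-like for their markers of striatal projection neurons, which motor cortex lacks. Their summed level of 9 such markers was 9154 CPM (counts scaled to a total of 1000000), against 446 CPM in GABAergic-like, 399 CPM in glutamatergic-like and 1025 CPM in oligodendrocyte-like nuclei, so the marker RNA of these nuclei goes against their tissue label. The other classes were 273 GABAergic-like, 108 glutamatergic-like, 106 astrocyte-like and 50 oligodendrocyte-like nuclei, and 102 nuclei had fewer than 1000 genes. Those 102 nuclei held a median of 30473 CPM over 7 oligodendrocyte markers, against 42621 CPM in the oligodendrocyte-like class. With a minimum of 500 genes that class held 125 nuclei, so its shares below cover only the nuclei past the cutoff. All names come from marker RNA, hence the ending "-like". The receptors and the list of serotonin pathway genes took no part in the clustering. Median depth was 260170.5 reads per nucleus, and class medians ran from 241227 reads in SPN-like to 300958.5 reads in astrocyte-like nuclei.

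Serotonin is made by neurons of the brainstem raphe nuclei, whose axons reach the whole forebrain, and the receiving cells differ in the receptors they carry. Htr1 receptors couple to inhibitory Gi/o proteins, which lower cyclic AMP and open inwardly rectifying potassium channels, and Htr2 receptors couple to Gq and phospholipase C. Htr4 and Htr7 couple to Gs and raise cyclic AMP, and Htr3a is the core subunit of a serotonin-gated cation channel.

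The 3 receptors with reads in the most nuclei were Htr1f (157 of 800 nuclei), Htr2c (105) and Htr2a (53), and most class comparisons below turn on them. Their upstream sequences are shown so that a reader can see the promoters in question. Each is the 150 bases before the gene's start, taken as the more upstream of the RefSeq and GENCODE M21 starts, 5′ to 3′ on the gene's strand, from RefSeq on GRCm38.p6. RefSeq windows were matched for 7 of the 9 receptors, without Htr3a and Htr4. Capitals mark GGGCGG, the GC box, on either strand.
Htr2c, chrX:146962363-146962512, plus strand: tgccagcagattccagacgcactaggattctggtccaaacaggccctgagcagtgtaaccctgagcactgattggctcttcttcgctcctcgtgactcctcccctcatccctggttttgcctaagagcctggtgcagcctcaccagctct
Htr1f, chr16:65105855-65106004, minus strand: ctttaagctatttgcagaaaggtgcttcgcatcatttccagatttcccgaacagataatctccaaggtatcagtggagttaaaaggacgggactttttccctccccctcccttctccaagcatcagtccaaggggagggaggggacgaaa
Htr2a, chr14:74640690-74640839, plus strand: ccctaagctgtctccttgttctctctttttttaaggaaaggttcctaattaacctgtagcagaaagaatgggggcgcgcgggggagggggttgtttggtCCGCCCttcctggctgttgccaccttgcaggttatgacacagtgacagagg
Searched on both strands were the TATA box core TATAAA, the GC box GGGCGG, the cyclic AMP response element TGACGTCA and the E-box CANNTG. The Htr2a window held a single GC box and the Htr2c and Htr1f windows held none of the 4 motifs. For the same length before the RefSeq start, 7.57% of 32851 mouse promoter windows held the TATA box core, 28.6% the GC box, 1.36% the cyclic AMP response element and 47.7% the E-box. CG dinucleotides numbered 3 in the Htr2c window, 4 in Htr1f and 4 in Htr2a, and the median over all windows was 4. A motif match or its absence describes these letters only.

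Htr2c, the Gq-coupled receptor whose RNA is edited and whose loss in mice leads to overeating, was read most often in SPN-like nuclei. A read was found in 66 of 161 SPN-like nuclei (41.0%, 95% Clopper-Pearson interval 33.3 to 49.0%) and in 31 of 273 GABAergic-like nuclei (11.4%, 7.85 to 15.7%). Glutamatergic-like nuclei held it in 4 of 108 (3.70%), astrocyte-like nuclei in 3 of 106 (2.83%) and oligodendrocyte-like nuclei in 1 of 50 (2.0%). The 3 astrocyte-like nuclei with a read held 119, 264 and 777 CPM. By series, 23 of 41 SPN-like nuclei of S40324 (56.1%, 157 CPM) and 40 of 113 of S40326 (35.4%, 94.2 CPM) held Htr2c, beside 9 of 95 (9.47%) and 21 of 158 (13.3%) of the GABAergic-like nuclei of these series. The series hold different mixes of vectors, so here and below a series difference cannot be told apart from a vector difference. Intervals here and below cover counting error only.

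**Figure D1:**
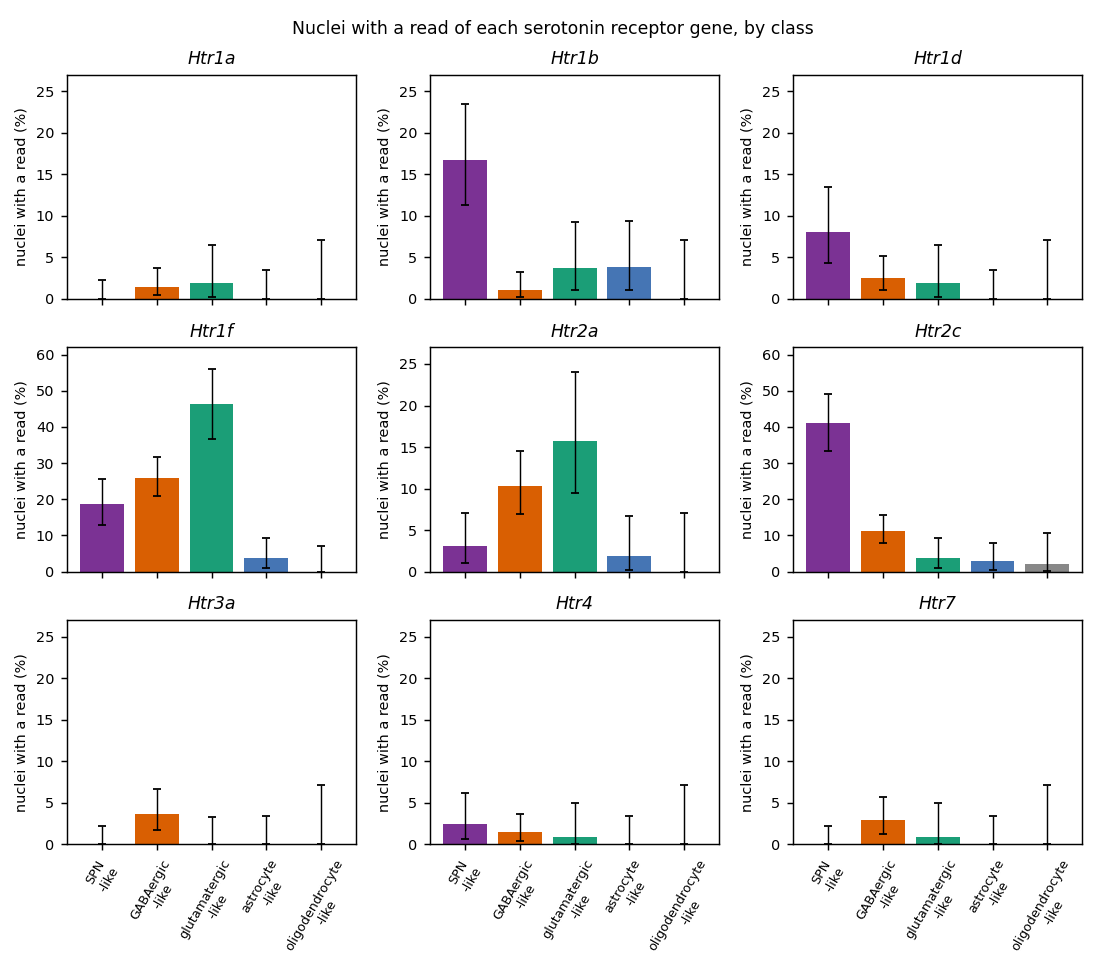
Share of nuclei with at least 1 read of each receptor gene (percent, bars) in 161 SPN-like, 273 GABAergic-like, 108 glutamatergic-like, 106 astrocyte-like and 50 oligodendrocyte-like nuclei, with 95% Clopper-Pearson intervals as error bars. The vertical axes of Htr1f and Htr2c reach further than the others; Htr2c and Htr1b were highest in SPN-like nuclei (41.0% and 16.8%) and Htr1f in glutamatergic-like nuclei (46.3%).

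Summed over a class, Htr2c came to 108 CPM in SPN-like nuclei (Poisson interval 105 to 111 CPM), 44.9 CPM in GABAergic-like nuclei and 3.39 CPM in glutamatergic-like nuclei. Averaged over vectors with at least 3 nuclei of the class, it was 92.6 ± 59.6 CPM in SPN-like nuclei (SD, n = 14 vectors), 42.0 ± 60.1 CPM in GABAergic-like nuclei (SD, n = 18) and 3.87 ± 7.87 CPM in glutamatergic-like nuclei (SD, n = 12). The level in a single SPN-like nucleus with a read ran from 7.17 to 1034 CPM, with a median of 271 CPM. No single nucleus held more than 6.65% of the SPN-like reads. In GABAergic-like nuclei, by contrast, a single nucleus held 27.2% of the reads.

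The comparison of SPN-like with GABAergic-like nuclei was made within the 12 vectors that had at least 3 nuclei of each class. Here and wherever SPN-like nuclei are compared with another class, tissue region and sort cannot be told apart from class. The SPN-like share of nuclei with an Htr2c read was lowest in AiE0401h (0 of 4 nuclei), stood at 33.3% in AiE0140h, AiE0447h and hI56i, which held the middle of the order, and was highest in AiE0387m (72.0%, 18 of 25 nuclei). The GABAergic-like share ran from 0% in AiE0078h, AiE0140h and AiE0447h to 25% in AiE0445h_3xC2 and hI56i. The share was higher in SPN-like nuclei in 10 of the 12 vectors and lower in AiE0401h and AiE0475m, and the ranges of the classes overlapped. It averaged 33.1% in SPN-like and 12.7% in GABAergic-like nuclei, a difference of 20.3 ± 19.8 percentage points (SD, n = 12).

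An exact two-sided sign-flip permutation test over vectors, run on all genes, gave p = 0.00586 and an adjusted p of 0.0407 for this difference. That test was chosen after the edgeR results were seen. It called 16.9% of 14433 genes tested, 4.16% as higher in SPN-like nuclei, and Htr2c was the single receptor it called. The call was lost without any of 10 of the 12 vectors (all but AiE0401h and AiE0475m; difference 16.9 to 21.7 points, adjusted p 0.0520 to 0.0718), where 11.9 to 16.4% of all genes were called. When each run of 8 title numbers stood for a sample, only the 15 runs with at least 2 nuclei of each class entered. They held 49 SPN-like and 48 GABAergic-like nuclei, against 131 and 167 in the comparison by vector. In this smaller set of nuclei the difference was 8.44 points (exact permutation adjusted p = 0.656, with 4.21% of all genes called). With library series S40326 alone the difference was 17.6 points over 9 vectors (adjusted p = 0.209), and that fit called 0 of 13026 genes, with 0.00391 as the smallest p it allows, so the lost call there says nothing of Htr2c itself. With nuclei classed by their marker levels, the share was higher in SPN-like nuclei in all 12 vectors and the difference was 29.8 points (adjusted p = 0.0140).

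By level the difference did not pass the test. Htr2c averaged 86.1 ± 62.2 CPM in SPN-like and 55.1 ± 69.9 CPM in GABAergic-like nuclei (SD, n = 12 vectors each), higher in SPN-like nuclei in 7 of the 12. edgeR's quasi-likelihood test on counts summed per vector and class, with the vector as a block, gave a log2 fold change of 2.23 ± 1.51 (SE) and a Benjamini-Hochberg adjusted p of 0.453. It called 786 of 9210 genes (8.53%), where the median gene had a log2 fold change of -0.62, and none of the 3 receptors that passed the filter on low counts (Htr1f, Htr2a and Htr2c). At an unadjusted p under 0.05 it held 1 receptor, Htr2a. DESeq2 on the same sums called 27.8% of the genes, Htr2a and Htr2c among them. Without the vector as a block the edgeR log2 fold change of Htr2c was 0.69 and that of Htr2a -0.83.

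SPN-like nuclei were compared with glutamatergic-like nuclei in 9 vectors. There Htr2c averaged 62 ± 44.6 CPM in SPN-like and 5.16 ± 8.82 CPM in glutamatergic-like nuclei (SD, n = 9 each). It was higher in SPN-like nuclei in 8 of the 9 vectors, and in 6 of them no glutamatergic-like nucleus held a read. edgeR gave a log2 fold change of 6.70 ± 2.21 (SE), p = 0.00629 and an adjusted p of 0.138, with 3.08% of 7595 genes called and 0 of 3 receptors; 2 receptors, Htr2c and Htr1f, had an unadjusted p under 0.05. DESeq2 called Htr2c and Htr1f, with 14% of genes called. edgeR also called Htr2c with counts thinned to 150000 per nucleus (adjusted p = 0.0262), with marker-level classes (0.0316) and without AiE0401h (0.0427). The share of all genes called in those fits is not given here, so these calls stand without a background. Without the block its log2 fold change was 3.41 (adjusted p = 0.364). By shares, 28.3% of SPN-like and 7.54% of glutamatergic-like nuclei held a read (exact permutation p = 0.0117, adjusted p = 0.150), and this test called 0 of 12308 genes. The 9 vectors allow no p below 0.00391, so in this comparison a missed threshold by shares says little of any single receptor.

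**Figure D2:**
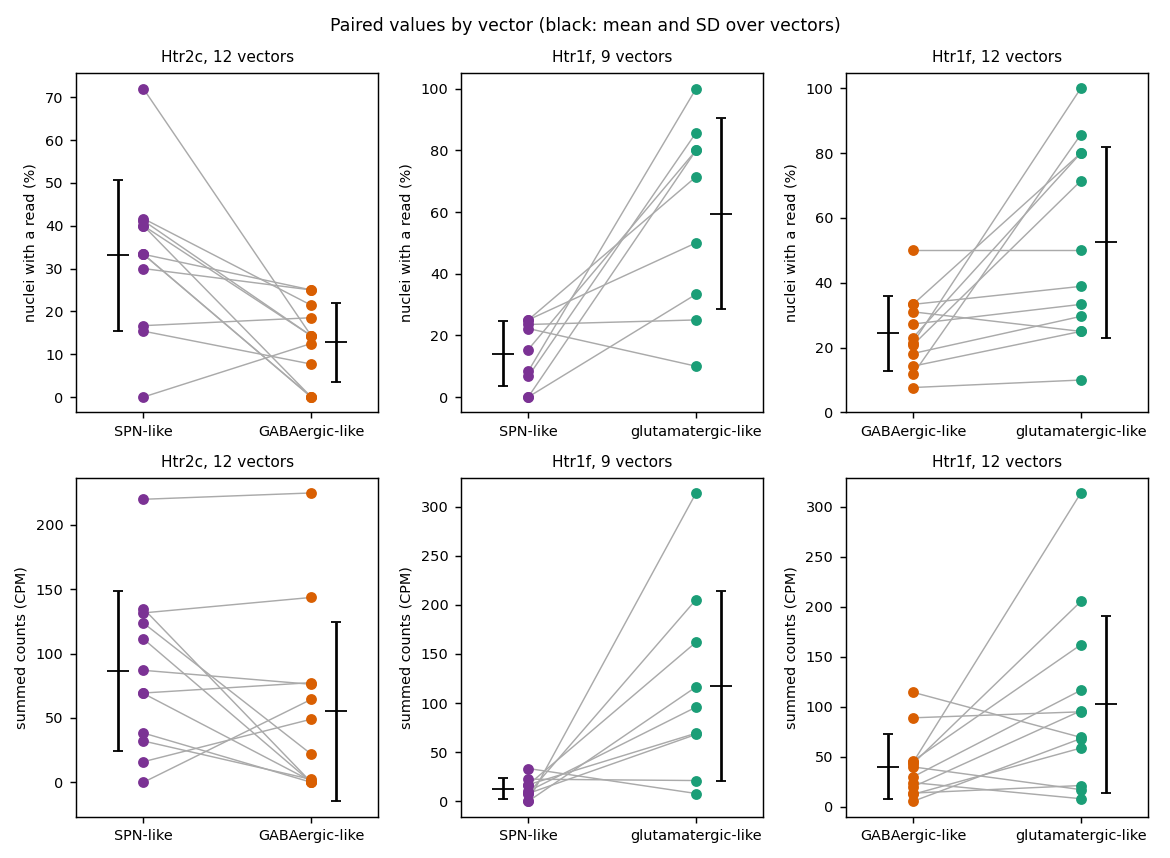
Share of nuclei with a read (top row, percent) and summed counts (bottom row, CPM) of Htr2c in SPN-like and GABAergic-like nuclei of 12 vectors, and of Htr1f in SPN-like and glutamatergic-like nuclei of 9 vectors and in GABAergic-like and glutamatergic-like nuclei of 12 vectors. Points are vectors, grey lines join the classes of a vector, and black marks give the mean and SD; the Htr2c share was higher in SPN-like nuclei in 10 of 12 vectors and the Htr1f share lower in GABAergic-like than in glutamatergic-like nuclei in 10 of 12.

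Choroid plexus epithelium is a rich source of Htr2c RNA, and its defining markers Ttr, Kl, Clic6 and Folr1 summed to 16.2 CPM in SPN-like nuclei, 0.0413 CPM in GABAergic-like nuclei and 4.41 CPM in glutamatergic-like nuclei, with Folr1 at 0 in all 3. A read of any of the 4 was found in 15 SPN-like nuclei, 7 of them with an Htr2c read, and their part in the Htr2c level was measured by leaving them out. Without those 15 nuclei Htr2c stood at 103 CPM and in 40.4% of SPN-like nuclei.

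Within SPN-like nuclei, Htr2c was read in 34 of 102 Drd1-like nuclei (33.3%, 24.3 to 43.4%) and 32 of 59 Drd2-like nuclei (54.2%, 40.8 to 67.3%). Drd1 and Drd2 mark the striatal output neurons of the direct and the indirect pathway. The 3 Drd1-like clusters held Htr2c in 28.6%, 35.3% and 36.4% of nuclei, and the 2 Drd2-like clusters in 51.6% and 57.1%. The Drd1-like cluster of 33 nuclei was led by Mbp, mt-Cytb, mt-Nd4 and mt-Nd1, with Drd1 and Tac1 also among its top 10 genes. The Drd1-like cluster of 34 nuclei was led by Pcp4l1, Scd2 and Stmn3. With a minimum of 500 genes, 35 SPN-like nuclei were Drd1-like, 12 Drd2-like and 117 unnamed. In the 7 vectors with at least 3 nuclei of each kind, Htr2c averaged 80.7 ± 50.8 CPM in Drd1-like and 145 ± 79.8 CPM in Drd2-like nuclei (SD, n = 7 each), lower in Drd1-like nuclei in 5 of 7 vectors. The groups overlapped, and the difference was within the spread between vectors (edgeR log2 fold change -0.70 ± 0.95 SE, adjusted p = 0.998). edgeR called 1 of 6895 genes here (0.0145%) and 0 of the 3 receptors tested, none of which reached an unadjusted p under 0.05, and DESeq2 called 0 receptors and 6.15% of genes. The shares averaged 35.1% in Drd1-like and 49.3% in Drd2-like nuclei (exact permutation p = 0.234, adjusted p = 0.948); 7 vectors allow no p below 0.0156.

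Among the 8 GABAergic-like clusters, the Htr2c share was highest in clusters 4 and 5. Cluster 4, led by Serpine2, Csmd3, Pcp4 and Lhx8 and left unnamed, held a read in 10 of 25 nuclei (40%, 21.1 to 61.3%) at 102 CPM. Cluster 5, Sst-like and led by Sst, Nos1 and Npy, held one in 7 of 24 nuclei (29.2%, 12.6 to 51.1%) at 210 CPM, although a single nucleus gave 58.5% of those reads. The other large Sst-like cluster held one in 1 of 59 nuclei (1.69%), and the 3 Pvalb-like clusters in 4 of 62, 5 of 37 and 1 of 19 nuclei. The intervals of clusters 4 and 5 overlap those of the SPN-like clusters.

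**Figure D3:**
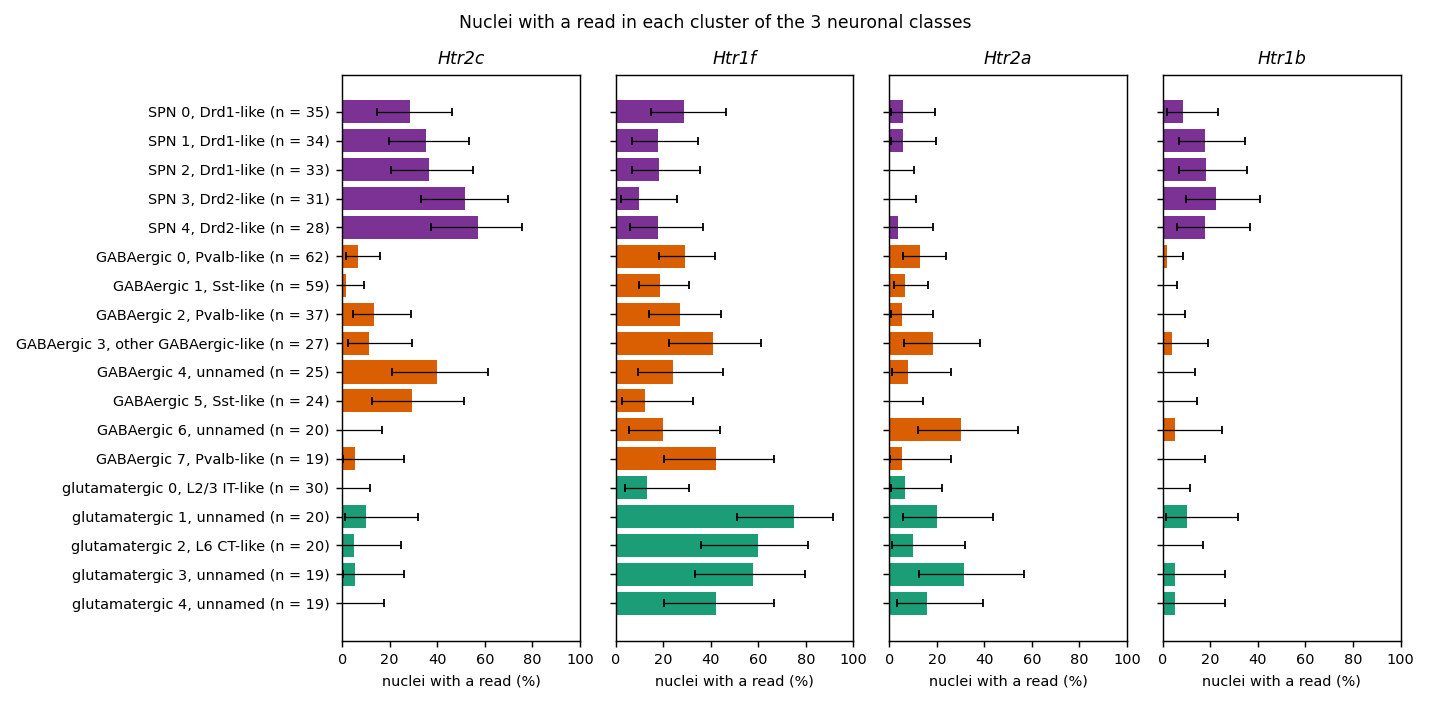
Share of nuclei with a read (percent, bars, with 95% Clopper-Pearson intervals) of Htr2c, Htr1f, Htr2a and Htr1b in the 5 SPN-like, 8 GABAergic-like and 5 glutamatergic-like clusters, with the subclass name and number of nuclei of each cluster at the left. Htr2c was found in 28.6 to 57.1% of nuclei in the SPN-like clusters and in 40% and 29.2% in GABAergic-like clusters 4 and 5; Htr1f ran from 13.3% in the L2/3 IT-like cluster to 75.0% in glutamatergic-like cluster 1.

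Htr2a, the Gq-coupled receptor through which classical psychedelics act, was read in 5 of 161 SPN-like nuclei (3.11%, 1.02 to 7.10%), 28 of 273 GABAergic-like nuclei (10.3%, 6.92 to 14.5%) and 17 of 108 glutamatergic-like nuclei (15.7%, 9.45 to 24%). Astrocyte-like nuclei held it in 2 of 106 (1.89%). Levels were 9.86 CPM in SPN-like, 25.3 CPM in GABAergic-like and 29.4 CPM in glutamatergic-like nuclei. In the 12 vectors compared, Htr2a averaged 13.9 ± 30.7 CPM in SPN-like and 23.3 ± 22 CPM in GABAergic-like nuclei (SD, n = 12 each), and 8 of the 12 SPN-like sums had no read at all. The edgeR log2 fold change was -4.83 ± 2.31 (SE; p = 0.0498, adjusted p = 0.248). By shares, 3.97% of SPN-like and 10.9% of GABAergic-like nuclei held a read (exact permutation p = 0.0820, adjusted p = 0.210). All 5 SPN-like nuclei with a read came from series S40326, and series S40324 had 0 of 41.

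Htr2a averaged 32.4 ± 32.7 CPM in GABAergic-like and 45.9 ± 86.1 CPM in glutamatergic-like nuclei (SD, n = 12 vectors each), a difference within the spread between vectors. The medians were 23.2 and 11.7 CPM, and Htr2a was higher in GABAergic-like nuclei in 7 vectors and lower in 5. The log2 fold change was 0.89 ± 2.11 (SE, edgeR adjusted p = 0.950), opposite in sign to the difference in means. The sign of that fold change turned without the block and with marker-level classes. Among clusters the highest shares were 6 of 19 nuclei in glutamatergic-like cluster 3 (31.6%, 12.6 to 56.6%), led by Dkk3, Ctsd and Oprk1, and 6 of 20 in GABAergic-like cluster 6 (30%, 11.9 to 54.3%), led by Trhde, Spon1 and Sst. In that GABAergic-like cluster the share was 16.7% at equal depth of 150000 counts. Htr1f was also read in 11 of the 17 glutamatergic-like nuclei with Htr2a, where 50 of all 108 had it.

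Htr1f, a Gi/o-coupled receptor and the target of the migraine drug lasmiditan, was highest in glutamatergic-like nuclei. It was read in 30 of 161 SPN-like nuclei (18.6%, 12.9 to 25.5%), 71 of 273 GABAergic-like nuclei (26%, 20.9 to 31.6%) and 50 of 108 glutamatergic-like nuclei (46.3%, 36.7 to 56.2%). Astrocyte-like nuclei held it in 4 of 106 (3.77%) and oligodendrocyte-like nuclei in 0 of 50, which allows a share of up to 6.00% at 3 counts and 7.11% by the Clopper-Pearson limit. Levels were 23.2 CPM in SPN-like, 42.5 CPM in GABAergic-like, 97.9 CPM in glutamatergic-like and 1.13 CPM in astrocyte-like nuclei.

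In the 12 vectors with GABAergic-like and glutamatergic-like nuclei, the GABAergic-like Htr1f sums ran from 5.34 CPM in AiE0078h through a median of 34.8 to 114 CPM in hI56i. The glutamatergic-like sums ran from 7.98 CPM in AiE0140h through a median of 82.1 to 314 CPM in AiE0447h, where only 3 nuclei entered. Htr1f was lower in GABAergic-like nuclei in 9 of the 12 vectors and the ranges overlapped. It averaged 40.1 ± 32.2 CPM in GABAergic-like and 103 ± 88.5 CPM in glutamatergic-like nuclei (SD, n = 12 each; edgeR log2 fold change -1.38 ± 0.79 SE, adjusted p = 0.573). edgeR called 3.16% of 8943 genes here, 0 of the 2 receptors tested, with none at an unadjusted p under 0.05; DESeq2 called Htr1f, and 16.3% of genes. The shares were 24.4% in GABAergic-like and 52.4% in glutamatergic-like nuclei, lower in GABAergic-like nuclei in 10 of 12 vectors (exact permutation p = 0.00391, adjusted p = 0.0677, with 4.08% of 14424 genes called), so Htr1f missed the threshold of 0.05.

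SPN-like nuclei stood lower than glutamatergic-like nuclei in 7 of 9 vectors by level, at 12.9 ± 10.8 CPM in SPN-like and 118 ± 96.7 CPM in glutamatergic-like nuclei (SD, n = 9 each; edgeR log2 fold change -3.33 ± 1.49 SE, adjusted p = 0.402). By share, 14% of SPN-like and 59.5% of glutamatergic-like nuclei held a read, lower in SPN-like nuclei in 8 of 9 vectors (exact permutation p = 0.0117, adjusted p = 0.150). As given for Htr2c, this test called 0 of 12308 genes, with 0.00391 as the smallest p that 9 vectors allow. In the 12 vectors shared by the other pair of classes, Htr1f averaged 20.9 ± 20.9 CPM in SPN-like and 42.8 ± 29.6 CPM in GABAergic-like nuclei (SD, n = 12 each), a difference within the spread (log2 fold change -1.33 ± 1.12 SE, edgeR adjusted p = 0.572).

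Glutamatergic-like clusters differed widely in Htr1f. The L2/3 IT-like cluster, named for markers of upper-layer intratelencephalic neurons, held it in 4 of 30 nuclei (13.3%, 3.76 to 30.7%) at 11.5 CPM. The L6 CT-like cluster, with markers of corticothalamic neurons, held it in 12 of 20 (60%, 36.1 to 80.9%) at 78.8 CPM. Unnamed cluster 1, whose leading genes include Coro6, Sulf2 and Etv1, held it in 15 of 20 (75.0%, 50.9 to 91.3%) at 175 CPM, and unnamed cluster 3 in 11 of 19 (57.9%) at 172 CPM. Under hSyn1, the vector with the most glutamatergic-like nuclei, 1 of 9 L2/3 IT-like nuclei and 2 of 5 cluster 1 nuclei held a read, and under CMV 1 of 4 and 3 of 5. The difference between these clusters was not tested.

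Series moved with this result: 11 of 33 glutamatergic-like nuclei of series S40323 (33.3%), 11 of 32 of S40324 (34.4%) and 28 of 43 of S40326 (65.1%) held Htr1f. The 27 glutamatergic-like nuclei of hSyn1 were all in S40323, so series and vector cannot be told apart here. With S40326 alone the difference in share between GABAergic-like and glutamatergic-like nuclei was -42.7 points over 7 vectors. The exact permutation test called 0 of 12282 genes there, with 0.0156 as the smallest p it allows, and the other series could not be fitted. Among GABAergic-like nuclei the series lay closer, at 28.4% in S40324 and 25.3% in S40326.

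Within GABAergic-like nuclei, Htr1f reached 11 of 27 other GABAergic-like nuclei (40.7%, 22.4 to 61.2%), whose leading genes include Adarb2 and Lamp5. It was found in 36 of 118 Pvalb-like nuclei (30.5%, 22.4 to 39.7%) and 14 of 83 Sst-like nuclei (16.9%, 9.54 to 26.7%). In the 4 vectors with enough nuclei it averaged 152 ± 110 CPM in other GABAergic-like and 30.7 ± 6.28 CPM in Pvalb-like and Sst-like nuclei (SD, n = 4 each; edgeR log2 fold change 1.4 ± 2.49 SE, adjusted p = 0.916). edgeR called 0.448% of 7586 genes in this comparison, 13 higher and 21 lower (18 and 14 with RLE scaling), and 0 of 2 receptors, none with an unadjusted p under 0.05; DESeq2 called 0 receptors and 13.1% of genes. The other receptor tested, Htr2c, averaged 9.12 ± 14 CPM in other GABAergic-like and 77.9 ± 91.9 CPM in Pvalb-like and Sst-like nuclei, lower in 3 of 4 vectors (edgeR log2 fold change -4.53 ± 4.12 SE, adjusted p = 0.788). The sign of the Htr1f difference turned with a minimum of 2000 genes and in series S40324 alone. By shares, 45.8% of other GABAergic-like and 24.3% of Pvalb-like and Sst-like nuclei held Htr1f, and 4 vectors allow no exact p below 0.125.

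Htr1b, a Gi/o-coupled receptor of axon terminals that restrains transmitter release and is a target of triptans, was concentrated in SPN-like nuclei. A read was found in 27 of 161 SPN-like nuclei (16.8%, 11.4 to 23.5%), 3 of 273 GABAergic-like nuclei (1.10%), 4 of 108 glutamatergic-like nuclei (3.70%) and 4 of 106 astrocyte-like nuclei (3.77%), so both other neuronal classes lay at or below the astrocyte-like share. Levels were 35.3 CPM in SPN-like, 0.798 CPM in GABAergic-like, 5.11 CPM in glutamatergic-like and 0.765 CPM in astrocyte-like nuclei. Of the glutamatergic-like reads, 74.5% came from a single nucleus of hI56i. By series, the SPN-like level was 68.2 CPM in S40324 (10 of 41 nuclei, 24.4%) and 28.5 CPM in S40326 (17 of 113 nuclei, 15%).

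Over the 12 vectors shared with GABAergic-like nuclei, the SPN-like Htr1b sums had a median of 19.9 CPM and a highest value of 113 CPM in AiE0387m, with 4 vectors at 0. The GABAergic-like sums were at 0 in 11 of the 12 vectors and at 7.29 CPM in AiE0391h. The share was higher in SPN-like nuclei in 8 vectors and lower in 1, averaging 13.4% in SPN-like and 1.19% in GABAergic-like nuclei (exact permutation p = 0.0195, adjusted p = 0.0845). Htr1b did not pass edgeR's filter on low counts in this comparison. Without that filter, at a 7.10% call rate over 19911 genes, edgeR called 2 receptors, Htr1b and Htr3a, at an adjusted p below 0.05. Against glutamatergic-like nuclei it averaged 25.8 ± 22.9 CPM in SPN-like and 12.8 ± 33.3 CPM in glutamatergic-like nuclei (SD, n = 9 each; edgeR log2 fold change 4.48 ± 2.24 SE, adjusted p = 0.523), and the shares were 14.3% in SPN-like and 7.51% in glutamatergic-like nuclei (exact permutation adjusted p = 0.533).

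Htr1b was read in 15 of 102 Drd1-like nuclei (14.7%, 8.47 to 23.1%) and 12 of 59 Drd2-like nuclei (20.3%, 11 to 32.8%), and the intervals overlapped. Means over 7 vectors were 35.6 ± 49.0 CPM in Drd1-like and 49.3 ± 47.6 CPM in Drd2-like nuclei (SD, n = 7 each; edgeR log2 fold change -0.35 ± 2.39 SE, adjusted p = 0.998). That sign turned without AiE0450h, without hI56i and at thinned depth. Exon sequence of Htr1b on chromosome 9 (mm10, 81628291 to 81633828, minus strand) overlaps the span of the antisense gene D430036J16Rik, and the libraries keep no strand. D430036J16Rik itself had 1132 reads in 37 nuclei, and 7 of the 38 nuclei with Htr1b held both.

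Htr1d, the sister Gi/o-coupled receptor and a further triptan target, was read in 13 of 161 SPN-like nuclei (8.07%, 4.37 to 13.4%), 7 of 273 GABAergic-like nuclei (2.56%) and 2 of 108 glutamatergic-like nuclei (1.85%). Glial nuclei held none, which allows up to 2.83% of astrocyte-like nuclei at 3 counts and 3.42% by the Clopper-Pearson limit. Levels were 20.5 CPM in SPN-like, 6.66 CPM in GABAergic-like and 0.212 CPM in glutamatergic-like nuclei, and a single AiE0779m nucleus at 1037 CPM gave 32.5% of the SPN-like reads. Shares within vectors averaged 8.48% in SPN-like and 2.94% in GABAergic-like nuclei, higher in 7 of 12 vectors and lower in 2 (exact permutation p = 0.0391, adjusted p = 0.131). Htr2c was read in 7 of the 13 SPN-like nuclei with Htr1d and in 15 of the 27 with Htr1b, where 66 of 161 had it overall.

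Htr1a, the somatic Gi/o-coupled receptor and raphe autoreceptor, was read in 6 nuclei only. Of these 4 were GABAergic-like, at 54.5, 295, 654 and 903 CPM, and 2 were glutamatergic-like, at 395 and 516 CPM. None of the 161 SPN-like nuclei held a read, which allows a share of up to 1.86% at 3 counts and 2.27% by the Clopper-Pearson limit.

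**Figure D4:**
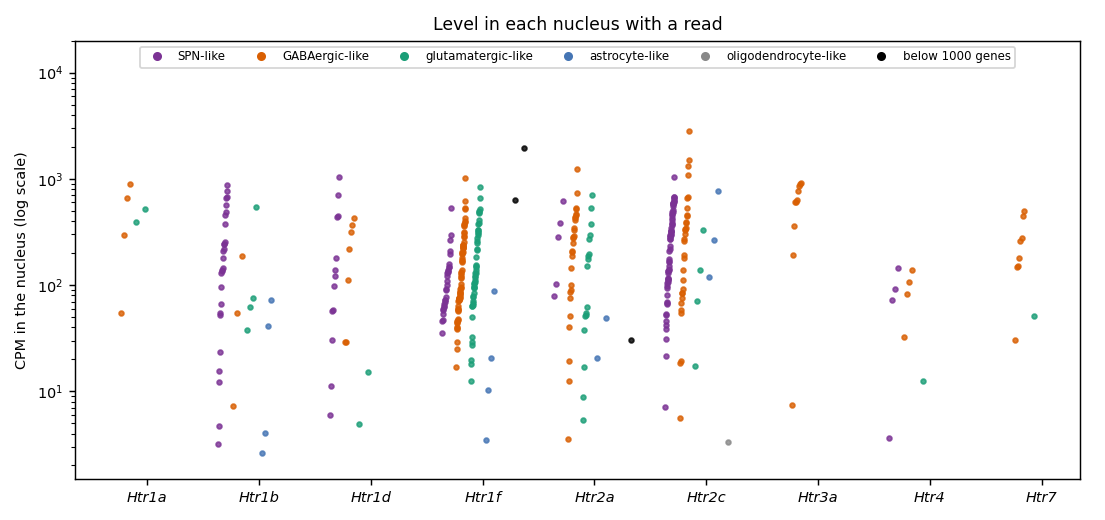
Level of each receptor in every nucleus with a read (CPM, log scale), coloured by class; nuclei without a read are not drawn. The 10 nuclei with Htr3a were all GABAergic-like and lay between 7.46 and 922 CPM, and the highest Htr1f value, 1950 CPM, was in a nucleus with fewer than 1000 genes.

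Htr3a, the ion channel subunit that in mouse cortex marks interneurons from the caudal ganglionic eminence, was read in 10 nuclei, all of them GABAergic-like (3.66% of 273, 1.77 to 6.63%). It was present at a median of 623 CPM where it was read. Other GABAergic-like nuclei held 5 of the 10 (18.5% of 27 nuclei), at 191, 359, 608, 775 and 922 CPM. Pvalb-like cluster 7, led by Gpr83, Kit and Pthlh, held 3 (at 7.46, 610 and 862 CPM), unnamed cluster 4 held 2 (636 and 889 CPM), and Sst-like nuclei held 0 of 83. The share in SPN-like nuclei was 0 of 161, and over vectors it averaged 0% in SPN-like and 5.58% in GABAergic-like nuclei, with reads in 5 of 12 GABAergic-like sums (exact permutation p = 0.0625, adjusted p = 0.173). In the 4 vectors compared, 33.3% of other GABAergic-like and 2.27% of Pvalb-like and Sst-like nuclei held a read (exact permutation p = 0.500, adjusted p = 0.885). Htr3a lies on chromosome 9 (mm10, 48899213 to 48911099, minus strand) opposite Gm32335, which had 3 reads in all and none in these 10 nuclei.

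The Gs-coupled receptors were scarce. Htr7 was read in 9 nuclei, 8 GABAergic-like and 1 glutamatergic-like, and in 0 of 161 SPN-like nuclei. Cluster 4, the unnamed cluster with Lhx8 and Htr2c, held 4 of the 8 (16% of 25 nuclei, 4.54 to 36.1%), at 30.2, 148, 278 and 502 CPM. Htr4 was read in 9 nuclei, 4 SPN-like, 4 GABAergic-like and 1 glutamatergic-like, at no more than 145 CPM. A nucleus without a read cannot be taken to lack the receptor at this depth.

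At least 1 of the 9 receptors was read in 60.9% of SPN-like, 48.7% of GABAergic-like and 54.6% of glutamatergic-like nuclei. Only 7.55% of astrocyte-like and 2.0% of oligodendrocyte-like nuclei held any. Exactly 2 receptors were read in 28 SPN-like, 22 GABAergic-like and 15 glutamatergic-like nuclei, and 3 or more in 9, 5 and 3 nuclei of these classes. In SPN-like nuclei, Htr1f and Htr2c were read together in 16 nuclei, of 30 with Htr1f and 66 with Htr2c.

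By vector, over all 40 nuclei of each, Htr2c was highest in AiE0387m (214 CPM, reads in 20 nuclei), AiE0445h_3xC2 (92.5 CPM, 7 nuclei) and AiE0779m (71.7 CPM, 9 nuclei), and no read was found in CMV or hSyn1. AiE0387m and AiE0779m held the most SPN-like nuclei (25 and 21), and CMV, hSyn1, DLX2.0, AiE0390m and AiE0452h held none. Htr2c was still read in 2 nuclei each of DLX2.0, AiE0390m and AiE0452h. Htr1f was highest in AiE0391h (89.0 CPM), where a single nucleus with fewer than 1000 genes gave 1950 CPM, and in AiE0387m (76.0 CPM, 16 nuclei). It was lowest in AiE0410m (0.987 CPM), in which 28 of 40 nuclei had fewer than 1000 genes. Over all vectors, nuclei below that cutoff were rich in oligodendrocyte markers, as given above. Each vector is 1 sample, so these levels carry no test, and the classes sorted by each vector move with them.

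**Figure D5:**
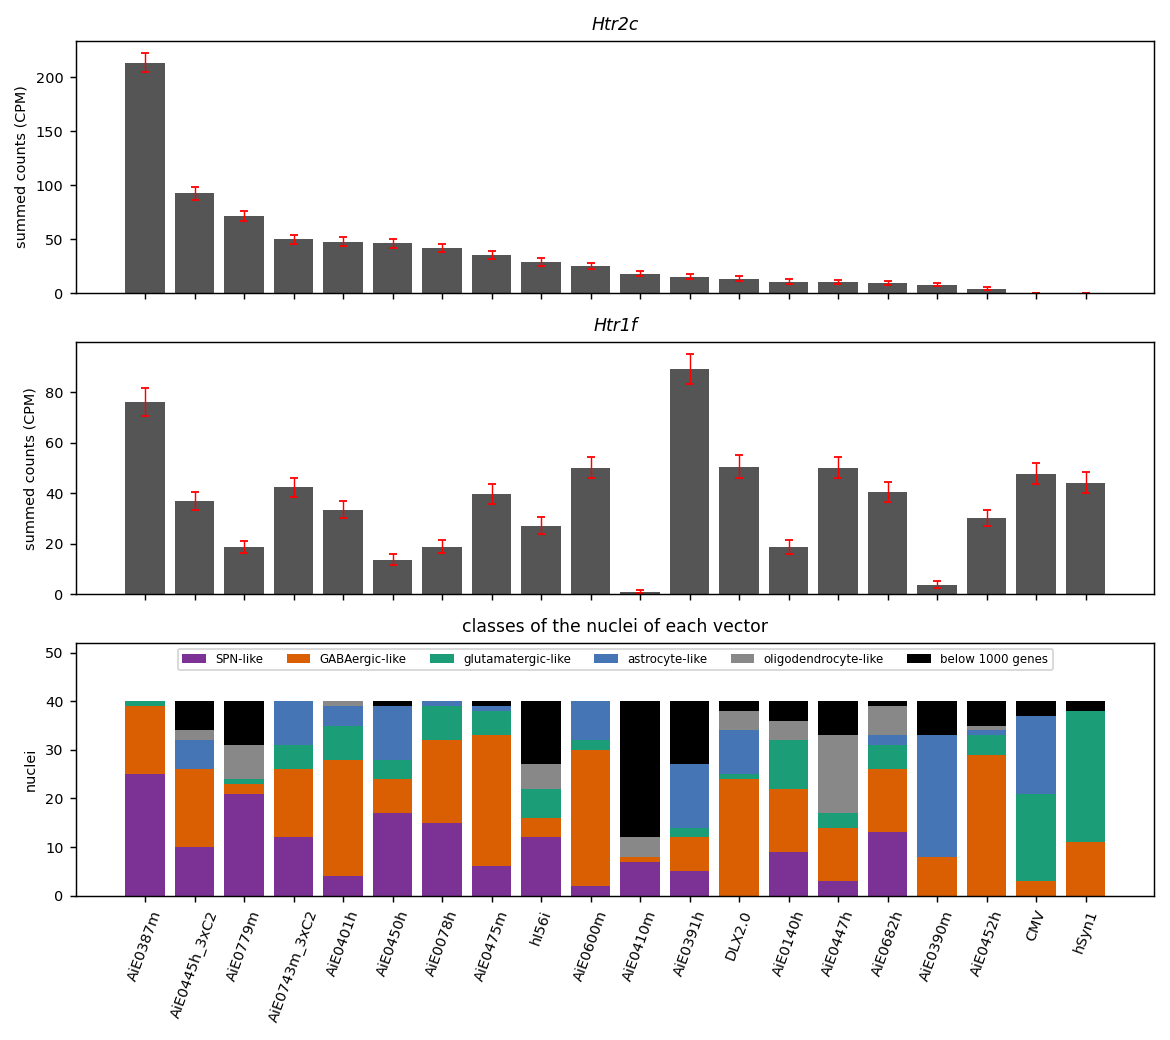
Summed counts of Htr2c and Htr1f over the 40 nuclei of each of 20 vectors (CPM, bars, with 95% Poisson intervals in red), and the classes of those nuclei below, vectors ordered by Htr2c. Htr2c was highest in AiE0387m at 214 CPM, the vector with 25 SPN-like nuclei, and had no read in CMV and hSyn1.

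A list of 47 pathway genes was followed as well. It held genes that carry serotonin signals past the receptor, other serotonin receptors, and genes of serotonin synthesis, uptake, storage and breakdown. That list was chosen with earlier results of these data known. Ppp1r1b is left out because it helped to name SPN-like nuclei. Between SPN-like and GABAergic-like nuclei 32 of the other 46 could be tested, and edgeR called 6 as higher and 8 as lower in SPN-like nuclei, beside 8.53% of all genes; the median log2 fold change was -0.97, against -0.62 over all genes. On the Gs side, Adcy5, the main adenylyl cyclase of striatum, rose to 693 ± 303 CPM in SPN-like nuclei, against 46.2 ± 56.6 CPM in GABAergic-like nuclei (SD, n = 12 each; adjusted p = 0.0022). Gnal, the striatal stimulatory G protein alpha subunit, was at 548 ± 110 CPM in SPN-like and 82.1 ± 54.5 CPM in GABAergic-like nuclei (adjusted p = 3.28e-06). Its widespread relative Gnas was at 0.887 ± 1.92 CPM in SPN-like and 30.8 ± 24.8 CPM in GABAergic-like nuclei (adjusted p = 0.00584). Adcy5 was also among the 10 leading genes of the SPN-like cluster, though it took no part in the clustering. The cyclases Adcy1, Adcy2 and Adcy8 fell, Adcy8 to 0 CPM in all 12 SPN-like sums, against 116 ± 71.5 CPM in GABAergic-like nuclei.

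On the Gq side, Plcb1, Itpr1 and Prkcb rose in SPN-like nuclei and Plcb4 fell. Plcb1, a phospholipase C, was at 668 ± 175 CPM in SPN-like and 210 ± 101 CPM in GABAergic-like nuclei, and Plcb4 at 4.66 ± 16.1 CPM in SPN-like and 132 ± 103 CPM in GABAergic-like nuclei (SD, n = 12 each). Itpr1, the calcium release channel opened by inositol trisphosphate, was at 768 ± 352 CPM in SPN-like and 181 ± 95.1 CPM in GABAergic-like nuclei. On the Gi/o side, Rgs4, which speeds the shut-off of G proteins, rose (674 ± 245 CPM in SPN-like and 103 ± 61.1 CPM in GABAergic-like nuclei), and Gnai1 and the potassium channel gene Kcnj3 fell (Kcnj3 7.75 ± 14 CPM in SPN-like and 60.1 ± 66.4 CPM in GABAergic-like nuclei), as did the scaffold gene Mpdz.

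Against glutamatergic-like nuclei 28 pathway genes were tested, with Adcy5, Gnal, Itpr1 and Plcb1 higher and Adcy1, Adcy2, Gnai1, Kcnj3, Kcnj6 and Plcb4 lower in SPN-like nuclei (3.08% of all genes called). Kcnj6, a further subunit of the G protein-gated potassium channel, was at 0.148 ± 0.256 CPM in SPN-like and 137 ± 117 CPM in glutamatergic-like nuclei (SD, n = 9 each). GABAergic-like and glutamatergic-like nuclei differed in 0 of 32 pathway genes by edgeR, and the genes called by shares included Adcy2, Itpr1 and Kcnj3, all lower in GABAergic-like nuclei. No pathway gene was called between Drd1-like and Drd2-like nuclei (20 tested, beside 0.0145% of all genes called) or between other GABAergic-like and Pvalb-like and Sst-like nuclei (29 tested, beside 0.448% of all genes), which is near the background. Of the 3 markers of serotonergic neurons, the transporter gene Slc6a4 had no read in any of the 5 classes. Tph2, the enzyme that makes serotonin in neurons, stood at 0.468 CPM in GABAergic-like and 7.90 CPM in astrocyte-like nuclei, and the transcription factor gene Fev at 0.564 CPM in GABAergic-like nuclei, both at 0 in the other classes.

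Over 60 sums of vector and class, the 3 genes whose log2(CPM + 1) profile was most like Htr1f were Ryr2, Bcl11a and Mir124a-1hg (Pearson r 0.87, 0.85 and 0.84). For Htr2c they were Rit2, Sv2c and Cntnap3 (r 0.70, 0.69 and 0.69), for Htr2a Rtl4, Tnfrsf21 and Nyap2 (r 0.67, 0.60 and 0.60) and for Htr1b Acvrl1, Baz1a and Chia1 (r 0.69, 0.64 and 0.61). For Htr3a they were Vwc2, Pthlh and Tmem255a (r 0.65, 0.64 and 0.62), although 7 sums alone held an Htr3a read. Htr1d, Htr7, Htr4 and Htr1a had no profile above an r of 0.58. These are descriptions over sums that share vectors and class makeup, chosen among 10637 genes with a mean of at least 10 CPM.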

How the data were processed

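The authors deposited a table of raw read counts per gene and nucleus. The labelled nuclei were checked to hold whole numbers, and none was identical to another. Per the labels, single nuclei were sorted and libraries made with SMART-Seq v4, which has no molecular barcodes and keeps no strand, to moderate depth. STAR 2.7.2a and the mm10 build are listed, without a stated role, per the submitters' processing notes. For the annotation and the counting rule, the sources used here give nothing. The 800 labelled nuclei were used and 1701 columns without a label were not. Depth ran from 70 to 901264 reads per nucleus (median 260170.5). Gene models are from GENCODE M21, matched by identifier.

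Nuclei with at least 1000 genes (698) were clustered with scanpy 1.11.5 and leidenalg 0.10.2 (2000 variable genes, 30 components, 15 neighbours, resolution 1; 1000 genes and 10 components for subclasses, set after the cluster markers were seen), leaving out the 9 receptors and 47 pathway genes. A cluster was named for the class whose markers had the highest relative level, with at least 3 markers in 25% of its nuclei and 1 among its top 10 genes. No doublet caller was run, since each library was made from a single sorted nucleus. Counts were summed per vector and class and tested with edgeR 4.0.16 (filterByExpr, TMM, quasi-likelihood, vector as block, at least 3 nuclei of each class, Benjamini-Hochberg over all genes, threshold 0.05) in R 4.3.3; DESeq2 1.42.0 was an alternative. The vector is a block because both classes of a vector come from 1 label. Shares of nuclei with a read were compared within vectors by an exact sign-flip permutation test for each gene with reads in at least 5 nuclei, added after the edgeR results were seen. Both tests were tested on simulated data. CPM here are counts scaled to a total of 1000000 over a class, vector or nucleus, computed from the deposited counts; a zero count is bounded by 3 counts. The text names all 9 receptors, pathway genes past the threshold and, for likeness, the 3 genes with the highest correlation. The members and lists were chosen with earlier results of these data known.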

Additional observations from a re-analysis of the deposited data

Results flagged for a closer look

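Samples that stood far from the others of their group by Dixon's Q rule were found for 3 values. For normally distributed values, chance alone marks about 1 in 20 groups this way. Many of these sums are 0, so the rate here is not known. Comparisons over 12 vectors were beyond the rule's limits and could not be marked. Htr1b reached 101 CPM in the glutamatergic-like nuclei of hI56i, where the other vectors of the 9 in that comparison lay between 0 and 7.25 CPM. It stood at 136 CPM in the Drd1-like nuclei of AiE0387m, where the others of 7 vectors lay between 0 and 49.8 CPM. Htr1f was low in the Pvalb-like and Sst-like nuclei of AiE0445h_3xC2, at 21.3 CPM, where the others of 4 vectors lay between 33.4 and 34.5 CPM.

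Nuclei with fewer than 1000 genes, which entered no class comparison, held Htr1f at 37.8 CPM. These reads came from 2 nuclei, 781 reads (1950 CPM) in AiE0391h and 150 reads (633 CPM) in AiE0447h. Htr2a stood at 0.285 CPM there, from 7 reads in a single CMV nucleus.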

How the results depend on the processing

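Without the replicate block edgeR called 0 receptors in each of the 5 comparisons, as with it, and turned the GABAergic-like against glutamatergic-like Htr2a log2 fold change to -0.62; marker-level classes gave -0.0774. Where edgeR called 0 receptors, DESeq2 called 2 (SPN-like against GABAergic-like), 2 (against glutamatergic-like) and 1 (GABAergic-like against glutamatergic-like), dropping the filter on low counts 2 in the first, and thinning, marker-level classes and leaving out AiE0401h 1 each in the second. Calls over all genes in the first went from 786 to 2557 with DESeq2, 1413 with no filter and 189 with runs of 8 nuclei. Those runs kept 49 SPN-like and 48 GABAergic-like nuclei, against 131 and 167 with vectors as the unit. In the second, the share of all genes called by the fits that called 1 receptor is not given.

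The count of receptors called by shares went from 1 to 0 with S40326 alone (0 of 13026 genes called), runs of 8 (4.21% of genes called) and 10 of 12 vectors left out (11.9 to 16.4%, against 16.9% with all); leaving out vectors in turn gave counts of 0 to 1 and Htr2c differences of 16.9 to 23.3 points, S40326 alone 17.6 and runs 8.44 points. Drd1-like against Drd2-like Htr1b (-1.28 to 0.56 with vectors left out in turn) turned to 0.44 without AiE0450h, 0.56 without hI56i and 2.29 thinned. Other GABAergic-like Htr1f turned to -1.60 with at least 2000 genes, -0.13 in S40324 alone and, by shares, -0.108 points with 2000 genes. Averaging CPM over nuclei gave Htr1f 58.0 CPM in AiE0391h, against 89.0 summed, and Htr2c 186 CPM in AiE0387m, against 214. RLE scaling moved the median gene of SPN-like against glutamatergic-like from 0.043 to -0.084 and of other GABAergic-like from -1.84 to -1.55. The cause of these changes was not tested. S40324 alone could not be fitted for 4 comparisons, S40326 alone for other GABAergic-like nuclei, nor 500 genes for Drd1-like nuclei. Reads in few nuclei per vector limit the precision of all these values.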
